A study of Mus musculus with 14 samples.

Results

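The D-type cyclins (Ccnd1, Ccnd2 and Ccnd3), the E-type cyclins (Ccne1 and Ccne2) and their kinases (Cdk4, Cdk6 and Cdk2) were followed in RNA of sorted mouse bone marrow cells rich in blood stem cells. These 8 genes were chosen by name, with earlier results of these data known, and all 8 are among the 24833 genes of the count table. The C57BL/6 mice had been injected intraperitoneally with the inflammatory cytokine interleukin-1 beta (IL-1β, 0.5 µg per mouse per day) or with phosphate-buffered saline (PBS), for 1 or 20 days. The groups were IL-1β for 1 day (3 libraries), PBS for 1 day (3), IL-1β for 20 days (4) and PBS for 20 days (4). Each library came from sorted cells pooled over 3 to 5 mice, so p-values measure the spread between pools; the sources do not state the age of the mice. The sort kept cells that lacked lineage markers, Flk2 and CD48 and that carried Sca-1, Kit and CD150, a fraction enriched for stem cells and not pure.

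In G1, the phase before DNA is copied, D cyclins bind Cdk4 or Cdk6, and the active complexes phosphorylate the retinoblastoma protein. This releases E2F transcription factors, whose targets include the E cyclins. E cyclins bind Cdk2 and drive entry into S phase. D cyclins couple the cycle to signals from outside the cell. In blood stem cells, Cdk6 is known for setting how quickly a resting cell can leave quiescence, and Cdk4 and Cdk6 are close relatives with overlapping partners.

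Library totals ran from 21654896 to 29441947 counts, so that 3 counts in a library amount to 0.102 to 0.139 CPM (counts scaled to a common library size). This floor uses the totals alone, while the CPM of genes also use edgeR's TMM factors. Every member lay far above the floor in every library. The sort genes were present: Kit averaged 983, 1275, 1202 and 1142 CPM in the IL-1β 1-day, PBS 1-day, IL-1β 20-day and PBS 20-day groups, and Slamf1, which encodes CD150, was found in each library. Flt3, which encodes Flk2, was also found, at 78.7 to 139 CPM with IL-1β for 20 days and 40.7 to 60.4 CPM with PBS for 20 days. Slamf1 at 20 days had 89.5 to 116 CPM with IL-1β and 39.4 to 68.9 CPM with PBS. Both genes overlapped between the groups at 1 day. Cd48 had 8.64 to 10.2 CPM with IL-1β for 1 day and 3.78 to 6.01 CPM with PBS. At 20 days Cd48 overlapped, with 3.40 to 9.24 CPM with IL-1β and 2.78 to 3.63 CPM with PBS. Among 5 stem cell genes, Procr, Fgd5 and Hoxb5 were lower with IL-1β for 1 day without overlap, while Mecom and Hlf overlapped. Procr had 55.8 to 66.6 CPM against 74.1 to 82.8 CPM with PBS. Fgd5 had 48.0 to 67.3 against 70.2 to 79.1 CPM, and Hoxb5 4.66 to 6.35 against 7.68 to 8.55 CPM. Of all genes tested, 8.9% lay below PBS without overlap at 1 day. At 20 days all 5 stem cell genes overlapped. By the tags in their titles the libraries form 4 naming sets, and each set holds as many IL-1β as PBS libraries, all of 1 duration: 10k (replicate 3 at 1 day), E060216 (replicates 1 and 2 at 1 day), E061316 (replicates 1 and 2 at 20 days) and untagged (replicates 3 and 4 at 20 days). The labels do not say what the tags mean. The 10k titles hold no replicate number, and these libraries were given number 3 here. Replicate 3 of the IL-1β 20-day group differed in 14 neutrophil genes, which summed to 2619 CPM in it, while the sums elsewhere ran from 1.99 to 14.9 CPM.

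The stretches just before the annotated starts of Cdk4 and Cdk6 are shown because these kinases carry the main contrast described below, and because short letter runs known as binding motifs differ between them. The sequences are from RefSeq (GRCm38.p6), which had starts for Ccnd3, Ccne1, Cdk2, Cdk4 and Cdk6. For each gene the longest run of its window without an annotated exon of that gene is shown. Capitals mark the E box CACGTG, a motif bound by Myc among others. The E2F motif TTTCCCGC or TTTGGCGC was searched too, both motifs on both strands, and none of the matches in these windows overlap.
Cdk4 (chr10:127063285-127063533, plus strand): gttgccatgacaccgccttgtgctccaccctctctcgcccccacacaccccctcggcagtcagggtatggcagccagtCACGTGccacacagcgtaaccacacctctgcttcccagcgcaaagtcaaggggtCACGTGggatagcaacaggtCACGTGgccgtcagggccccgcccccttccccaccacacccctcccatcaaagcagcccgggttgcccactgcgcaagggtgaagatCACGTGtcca
Cdk6 (chr5:3343789-3343892, plus strand): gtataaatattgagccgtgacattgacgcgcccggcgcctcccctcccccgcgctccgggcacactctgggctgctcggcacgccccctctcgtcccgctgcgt

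The Cdk4 window held 4 E boxes, ending 166, 112, 92 and 5 bases before the start. Among the 250-base windows before all 32851 RefSeq starts, 6.02% held at least 1 E box and 7 windows held 4 or more. The Cdk6 window held 1 E box, 214 bases before the start and outside the stretch shown. That window (3343643 to 3343892) lies inside the gene as GENCODE places it (3341485 to 3531008), while the Cdk4 window ends at its GENCODE start. The windows of Cdk4 and Cdk6 thus are not at like positions in that annotation, and their E box counts are not a like comparison. Among the 5 members with a RefSeq start, Cdk2 alone had an E2F match, 132 bases before its start, against 1.30% of all windows. These matches describe letters only, and the E box was chosen after the sequences were seen.

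Among the D cyclins, Ccnd1 and Ccnd2 were lower after 20 days of IL-1β while Ccnd3 did not pass the test, and after 1 day Ccnd2 alone of the 3 was called. Ccnd1 averaged 8.02 ± 1.68 CPM with IL-1β for 20 days and 30.5 ± 5.17 CPM with PBS (SD, n = 4 each). Ccnd2 averaged 249 ± 6.20 and 536 ± 105 CPM. Ccnd3 averaged 334 ± 22.5 and 352 ± 30.3 CPM. In sorted pools, fewer cells of a type and less RNA per cell cannot be told apart.

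Ccnd1 (ENSMUSG00000070348, GRCm38 chromosome 7, 144929931 to 144939925, minus strand) encodes cyclin D1. After 20 days it had 10.4, 7.37, 6.59 and 7.67 CPM in the 4 IL-1β libraries, against 31.6, 23.5, 30.7 and 36.0 CPM in the PBS libraries. Every IL-1β library lay below every PBS library, and the highest of them was replicate 1. Ccnd1 fell by 1.92 ± 0.18 on the log2 scale (approximate SE; 3.79-fold lower, edgeR adjusted p = 2.45e-05). After 1 day it had 20.0, 21.9 and 15.6 CPM with IL-1β and 22.0, 23.8 and 26.3 CPM with PBS. The groups only just failed to overlap, and the log2 fold change of -0.33 ± 0.20 was not called (edgeR adjusted p = 0.404). The 10k pair gave -0.75 and the E060216 libraries -0.13. Exons of Ccnd1 overlap those of the protein-coding gene LTO1 on the other strand, which is not among the genes counted under that symbol.

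Ccnd2 (ENSMUSG00000000184, chromosome 6, 127125162 to 127152193, minus strand) encodes cyclin D2, the D cyclin with the larger fall in CPM. After 20 days the IL-1β libraries had 251, 244, 257 and 243 CPM, against 491, 424, 557 and 671 CPM in the PBS libraries. The IL-1β values lay close together, with a coefficient of variation of 2.50%, while the PBS values spread over 19.6%, with the untagged replicates 3 and 4 highest. Ccnd2 fell by 1.09 ± 0.10 (2.13-fold lower, edgeR adjusted p = 2.07e-05), with log2 ratios of -0.89 in E061316 and -1.30 in the untagged set. After 1 day it had 282, 313 and 362 CPM with IL-1β, against 490.2, 438 and 552 CPM with PBS. The groups did not overlap, and Ccnd2 fell by 0.63 ± 0.11 (edgeR adjusted p = 0.00534). Without IL-1β 1-day replicate 1 the call was lost (adjusted p = 0.0578).

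Ccnd3 (ENSMUSG00000034165, chromosome 17, 47505051 to 47599691, plus strand) encodes cyclin D3. After 1 day it had 469.6, 435 and 474 CPM with IL-1β, against 345, 345 and 448 CPM with PBS. The PBS library of the 10k pair overlapped the IL-1β group, and the log2 fold change of 0.29 ± 0.10 was not called (edgeR adjusted p = 0.12). After 20 days it had 351, 354, 323 and 307 CPM with IL-1β and 375, 333, 319.8 and 381 CPM with PBS. These groups overlapped, and the log2 fold change was -0.08 ± 0.08 (edgeR adjusted p = 0.682). The exons of Ccnd3 overlap those of Bysl on the other strand, which the counting may not separate; Bysl had a median of 45.6 CPM and fell by 0.61 at 20 days (edgeR adjusted p = 0.0129).

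**Figure D1:**
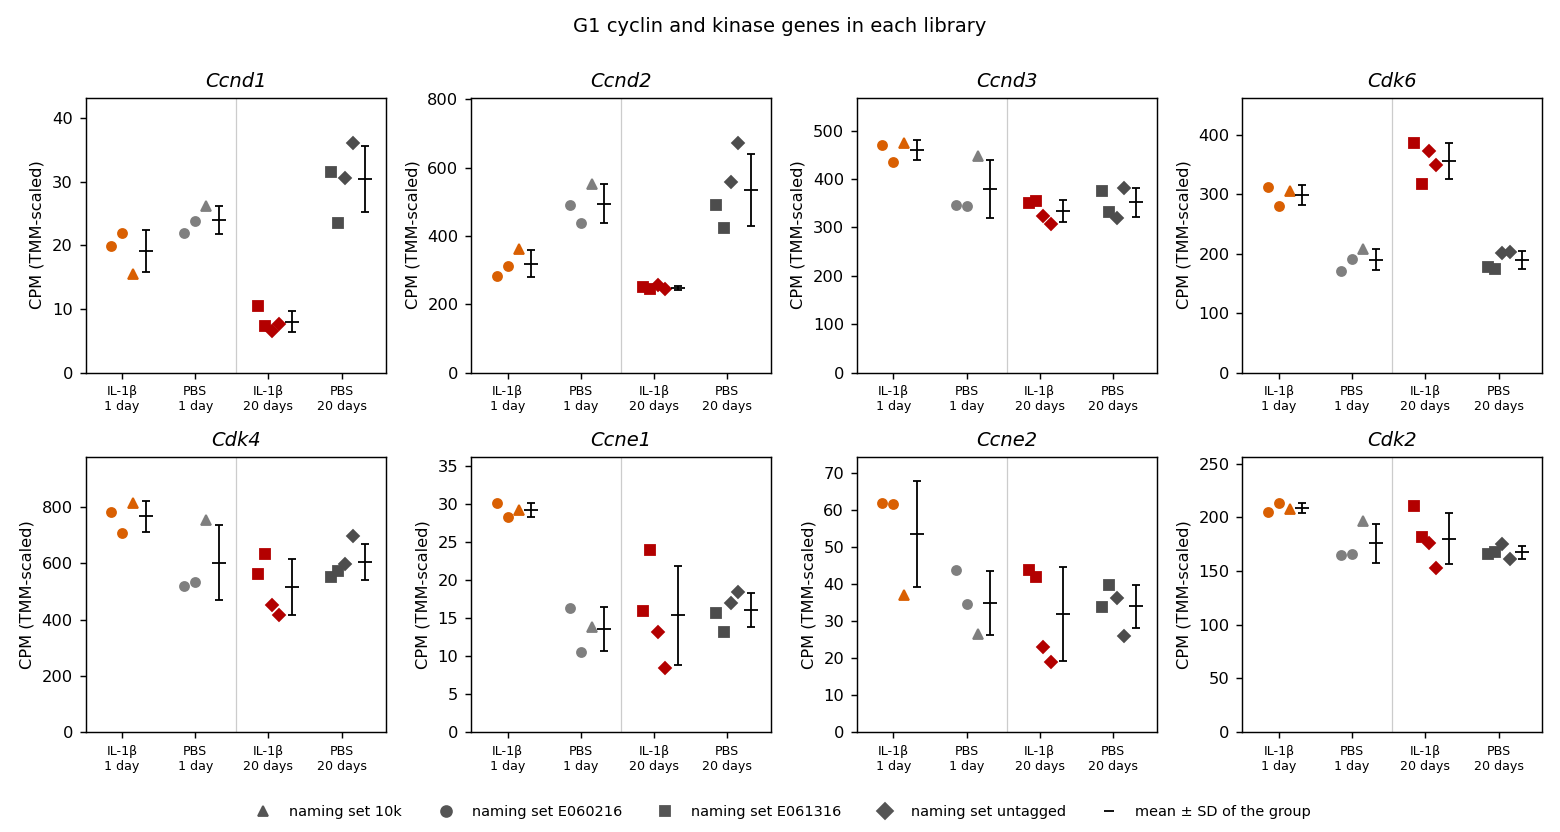
Each point is 1 library's TMM-scaled CPM of the gene named above the panel, grouped by treatment and duration (3 libraries a group at 1 day, 4 at 20 days), with marker shapes for the naming sets and bars for the group mean ± SD; axes start at 0. At 20 days all IL-1β libraries lie above all PBS libraries for Cdk6 and below them for Ccnd1 and Ccnd2, while the groups overlap for the other 5 genes.

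Of the D cyclins' kinases, Cdk6 rose after both durations and Cdk4 was called after neither. Cdk6 averaged 299 ± 16.8 CPM with IL-1β for 1 day and 190 ± 17.9 CPM with PBS (SD, n = 3 each). It averaged 356 ± 29.8 CPM with IL-1β for 20 days and 189 ± 15.3 CPM with PBS (SD, n = 4 each). The PBS levels of Cdk6 at 1 and 20 days were thus within 1 SD of each other.

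Cdk6 (ENSMUSG00000040274, chromosome 5, 3341485 to 3531008, plus strand) had 311, 279.9 and 306 CPM in the IL-1β 1-day libraries, against 171, 191 and 207 CPM in the PBS libraries. After 20 days it had 385, 317, 372 and 348 CPM with IL-1β, against 177, 174, 202 and 203 CPM with PBS. At each duration every IL-1β library lay above every PBS library. Cdk6 rose by 0.66 ± 0.10 after 1 day (1.58-fold, edgeR adjusted p = 0.00129) and by 0.92 ± 0.08 after 20 days (1.89-fold, adjusted p = 2.07e-05). The naming sets gave 0.56 and 0.71 at 1 day and 1.00 and 0.83 at 20 days. Leaving out any 1 of the 14 libraries ended neither call, with adjusted p up to 0.0125 at 1 day and 0.000247 at 20 days.

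Cdk4 (ENSMUSG00000006728, chromosome 10, 127063534 to 127067920, plus strand) had 782, 707 and 815 CPM with IL-1β for 1 day, against 518, 535 and 756 CPM with PBS. The PBS library of the 10k pair again lay inside the IL-1β range, and the log2 fold change was 0.37 ± 0.14 (edgeR adjusted p = 0.173). After 20 days Cdk4 had 561, 632, 454 and 417 CPM with IL-1β, against 552, 573, 599 and 698 CPM with PBS. The IL-1β libraries split by naming set, with both of E061316 inside the PBS range and both untagged ones below it. The sets gave log2 ratios of 0.09 and -0.57, and the fit -0.24 ± 0.12 (edgeR adjusted p = 0.29). Cdk4 shares exon sequence with Tspan31 on the other strand, whose median was 81.0 CPM and whose log2 fold changes were 0.07 and -0.07.

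The E cyclins were called only at 1 day, and there only Ccne1. Ccne1 (ENSMUSG00000002068, chromosome 7, 38097984 to 38107534, minus strand) had 30.1, 28.3 and 29.2 CPM with IL-1β for 1 day, against 16.3, 10.6 and 13.8 CPM with PBS. The groups did not overlap and each naming set gave a rise of about the same size, 1.08 in 10k and 1.12 in E060216. Ccne1 rose by 1.10 ± 0.27 (2.15-fold, edgeR adjusted p = 0.0342). This call was lost without any 1 of the 6 libraries of the 1-day groups. The edgeR adjusted p ran from 0.0519 without PBS replicate 1 to 0.167 without PBS replicate 2. Each naming set has its own term in the fit, so leaving out either 10k library in effect drops both. After 20 days Ccne1 had 15.9, 24.0, 13.2 and 8.37 CPM with IL-1β and 15.7, 13.2, 17.0 and 18.5 CPM with PBS. The IL-1β libraries covered a wider range than the PBS ones, with the set values at 0.46 and -0.72, and the log2 fold change was -0.12 ± 0.24 (edgeR adjusted p = 0.855).

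Ccne2 (ENSMUSG00000028212, chromosome 4, 11191351 to 11204779, plus strand) encodes cyclin E2. After 1 day it had 61.8, 61.6 and 36.9 CPM with IL-1β, against 43.7, 34.5 and 26.4 CPM with PBS. Within each naming set IL-1β lay above PBS (0.48 and 0.66), the sets differed in level, and the log2 fold change of 0.60 ± 0.19 was not called (edgeR adjusted p = 0.0886). After 20 days it had 43.6, 41.9, 22.9 and 18.9 CPM with IL-1β and 33.7, 39.7, 36.3 and 26.0 CPM with PBS. As for Cdk4 and Ccne1, the E061316 libraries gave a positive value (0.22) and the untagged ones a negative one (-0.57), and the fit gave -0.17 ± 0.16 (edgeR adjusted p = 0.637). Ccne2 shares exon sequence with Ints8 on the other strand, which the counting may not separate. Ints8 had a median of 90.9 CPM, above every value of Ccne2, and log2 fold changes of -0.05 at 1 day and -0.01 at 20 days.

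Cdk2 (ENSMUSG00000025358, chromosome 10, 128697939 to 128705031, minus strand), the kinase of the E cyclins, had 205, 213 and 208 CPM with IL-1β for 1 day, against 165, 166 and 197 CPM with PBS. The groups did not overlap, but the log2 fold change of 0.25 ± 0.10 was not called (edgeR adjusted p = 0.194). After 20 days Cdk2 had 210.4, 182, 176 and 152 CPM with IL-1β and 166, 168, 176 and 161 CPM with PBS. The groups overlapped, with a log2 fold change of 0.10 ± 0.09 (edgeR adjusted p = 0.602). Exons of Cdk2 overlap those of Pmel on the other strand, whose median was 2.68 CPM.

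Counted over the family, all 8 genes passed the filter on low counts. The members were chosen with earlier results of these data known, so the shares below describe them and test nothing. After 1 day 2 of them rose (Cdk6 and Ccne1) and 1 fell (Ccnd2), while of the 15466 genes tested 2.52% rose and 1.83% fell, 4.35% in all. The median log2 fold change of the 8 was 0.33, and that of all genes tested -0.01. The groups did not overlap for 5 of the 8 at 1 day, with IL-1β above PBS for 3 and below for 2, and for 17.7% of all genes tested (8.77% above and 8.9% below). After 20 days 1 of 8 rose (Cdk6) and 2 fell (Ccnd1 and Ccnd2), while 3.94% of all genes rose and 3.52% fell, 7.46% in all. Here the family's median was -0.15, against -0.00034 for all genes tested, and the groups did not overlap for 3 of the 8, against 10.4% of all genes tested (5.39% above and 5% below).

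Genes of dividing cells moved in the same comparisons. The summed level of 5 proliferation genes (Mki67, Top2a, Ccnb1, Aurka and Plk1) was 1394 to 1692 CPM with IL-1β for 1 day and 898 to 928 CPM with PBS. At 20 days it was 953 to 1129 CPM with IL-1β and 729 to 860.2 CPM with PBS. All 5 genes were found in every group. Sums over some lists of other blood cells' genes also did not overlap between the groups. The sum of 10 erythroid genes was 64.6 to 88.1 CPM with IL-1β for 1 day and 43.1 to 62.9 CPM with PBS, and 173 to 191 CPM with IL-1β for 20 days and 47.8 to 73.3 CPM with PBS. Most of the 20-day difference was in a single gene, the beta globin gene Hbb-bt (means of 116 CPM with IL-1β and 13.4 CPM with PBS), while the alpha globin gene Hba-a1 averaged 0.170 CPM with IL-1β and 1.26 CPM with PBS. The sum of 11 macrophage genes was 47.1 to 53.7 CPM with IL-1β for 1 day and 64.1 to 73.3 CPM with PBS, and overlapped at 20 days. The sum of 4 T and NK cell genes was 89.9 to 108 CPM with IL-1β for 20 days and 42.9 to 57.9 CPM with PBS, and it was almost all Nkg7 (means of 85.6 and 40.8 CPM), with the T cell genes Cd3d and Cd3g at 0.135 CPM or less in every library. The part of these differences in the members' values was not tested. Without IL-1β 20-day replicate 3, the library with the neutrophil genes, the 3 members called at 20 days stayed called.

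**Figure D2:**
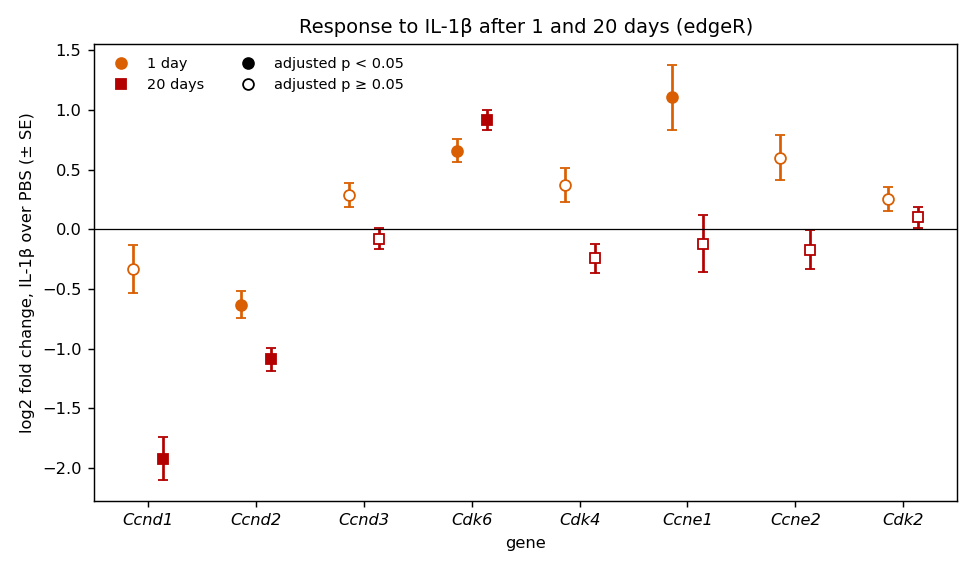
Points give each gene's edgeR log2 fold change (IL-1β over PBS, vertical axis), circles after 1 day and squares after 20 days, with approximate SE bars; filled points have an adjusted p below 0.05. Cdk6 lies above 0 at both durations (0.66 and 0.92), Ccnd2 below 0 at both (-0.63 and -1.09), and Ccnd1 is filled only at 20 days (-1.92).

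The 20-day response differed from the 1-day response for Ccnd1. The difference of effects was -1.59 ± 0.27 on the log2 scale (edgeR interaction, adjusted p = 0.0137), and 1 of 8 members was called, against 2.14% of all genes tested (1.15% higher and 0.989% lower at 20 days). Leaving out replicate 2 of either 1-day group ended the call, with adjusted p of 0.0524 without the IL-1β library and 0.0634 without the PBS library. For Ccnd2 the difference was -0.46 ± 0.15 and for Cdk6 0.26 ± 0.13, with adjusted p of 0.121 and 0.297. The other 5 members had differences between -1.23 (Ccne1) and -0.15 (Cdk2), none called. Each duration has naming sets of its own, so durations and sets cannot be told apart here.

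The kinases were compared with each other as a ratio of counts within each library, which needs no scaling between libraries. After 20 days Cdk6 had 0.686, 0.502, 0.819 and 0.836 counts per count of Cdk4 with IL-1β, against 0.321, 0.304, 0.337 and 0.291 with PBS. Every IL-1β library exceeded every PBS library, and the untagged ones were highest. The mean log2 ratio was -0.52 ± 0.34 with IL-1β and -1.68 ± 0.09 with PBS (SD, n = 4 each), 1.16 higher (exact permutation test, two-sided, p = 0.0286, the smallest that 4 against 4 can give; 0.0714 adjusted over the 10 ratio tests). After 1 day Cdk6 had 0.398, 0.396 and 0.375 counts per count of Cdk4 with IL-1β and 0.331, 0.357 and 0.274 with PBS. The groups did not overlap, with mean log2 ratios of -1.36 ± 0.05 and -1.65 ± 0.20 (SD, n = 3 each; exact permutation p = 0.1, the smallest that 3 against 3 can give). Whether the ratio changed more at 20 days than at 1 day was not tested.

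Among the D cyclins, Ccnd2 had 0.714, 0.689, 0.795 and 0.792 counts per count of Ccnd3 with IL-1β for 20 days, against 1.31, 1.27, 1.74 and 1.76 with PBS. Ccnd2 thus had fewer counts than Ccnd3 in every IL-1β library and more in every PBS library. After 1 day the ratio was 0.600, 0.718 and 0.764 with IL-1β and 1.42, 1.27 and 1.23 with PBS, with the same turn. The mean log2 ratio was 0.92 lower with IL-1β at 1 day (-0.53 ± 0.18 against 0.38 ± 0.11 with PBS; SD, n = 3 each; exact permutation p = 0.1). At 20 days it was 1.01 lower (-0.42 ± 0.10 against 0.59 ± 0.25 with PBS; SD, n = 4 each; exact permutation p = 0.0286, adjusted 0.0714).

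Ccnd1 lost ground to both other D cyclins at 20 days. Its log2 ratio to Ccnd3 averaged -5.40 ± 0.25 with IL-1β and -3.54 ± 0.20 with PBS (SD, n = 4 each; 3.61-fold lower). Its log2 ratio to Ccnd2 averaged -4.97 ± 0.29 with IL-1β and -4.13 ± 0.12 with PBS (SD, n = 4 each; 1.79-fold lower). Neither ratio overlapped between the groups, and each exact permutation p was 0.0286 (adjusted 0.0714). After 1 day the ratio to Ccnd3 was 0.62 lower on the log2 scale without overlap (exact permutation p = 0.1), and the ratio to Ccnd2 overlapped (0.30 higher, exact permutation p = 0.4). The ratio of Ccne1 to Ccne2 overlapped between the groups at both durations (exact permutation p = 0.3 at 1 day and 1 at 20 days). None of the 10 ratio tests passed 0.05 after adjustment, and none could have. The smallest possible exact permutation p was 0.0286 at 20 days and 0.1 at 1 day, so the adjusted values decide nothing here.

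**Figure D3:**
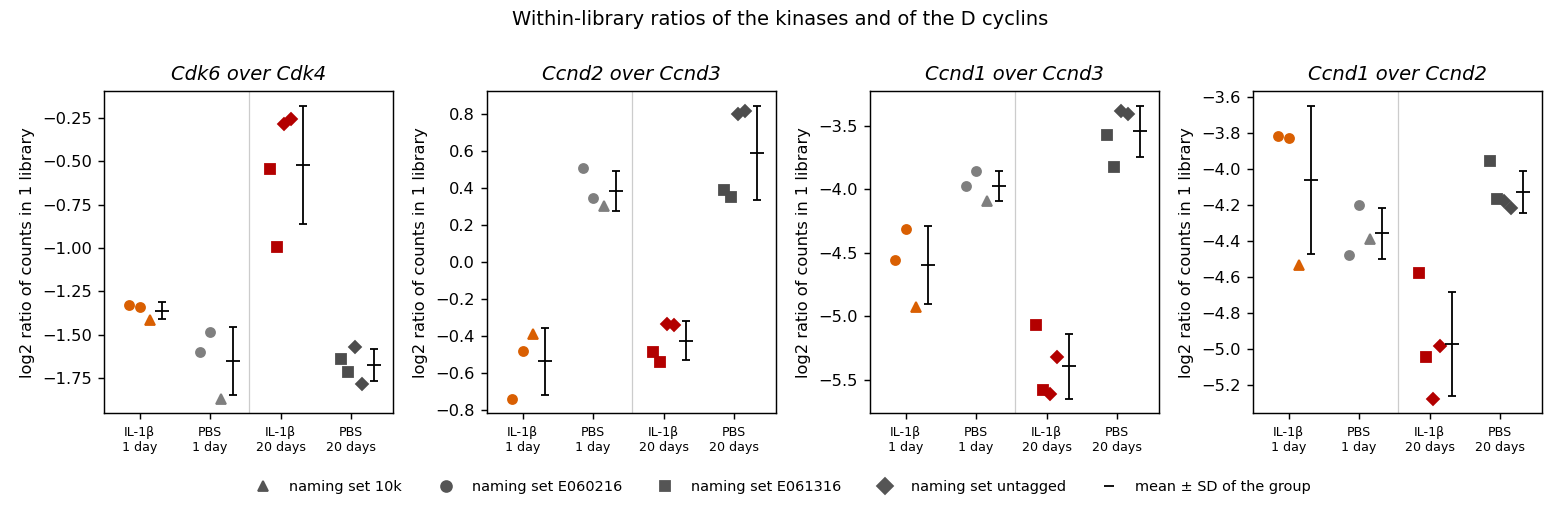
Each point is the log2 ratio of the counts of the 2 genes named above the panel in 1 library, by group, with marker shapes for the naming sets and bars for the group mean ± SD. The 4 IL-1β 20-day libraries lie above the PBS 20-day ones for Cdk6 over Cdk4 and below them in the 3 D cyclin panels.

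Levels of different genes were compared per kilobase (kb) of GENCODE vM21 exons (GRCm38), and the choice of length matters. Cdk4 was the highest member in all 4 groups with either length tried. Per kb of all exons joined, it had 159 CPM per kb with IL-1β for 20 days and 186 CPM per kb with PBS. Cdk6 had 25.4 CPM per kb with IL-1β for 20 days and 13.5 CPM per kb with PBS on the same scale. Cdk6 made up 14.1 ± 2.69% of the Cdk4 and Cdk6 level per kb with IL-1β for 20 days and 6.78 ± 0.40% with PBS (SD, n = 4 each). At 1 day its share was 8.30 ± 0.24% with IL-1β and 6.92 ± 0.86% with PBS (SD, n = 3 each). With the longest coding transcript as the length, the 20-day shares were 11.2% and 5.29%. Cdk4 thus stayed the more abundant of these kinases in every group.

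With IL-1β, Ccnd3 was the higher D cyclin with either length, at 52.4 CPM per kb of joined exons against 33.9 for Ccnd2 at 1 day, and 38.0 against 26.4 at 20 days. With PBS the order of Ccnd2 and Ccnd3 depended on the length. Per kb of joined exons, PBS libraries had 52.5 CPM per kb of Ccnd2 and 43.2 of Ccnd3 at 1 day, with overlapping ranges, and 56.9 and 40.1 at 20 days. Per kb of the longest coding transcript, Ccnd3 was the higher in all 4 groups, as its joined exons span 8775 bases and its longest coding transcript 2113. Ccnd1 was the lowest of the 8 members with IL-1β, at 4.07 CPM per kb of joined exons after 1 day and 1.70 after 20 days. With PBS, Ccnd1 and Ccne1 had overlapping ranges, at 5.10 CPM per kb each at 1 day, and at 6.47 for Ccnd1 and 6.04 for Ccne1 at 20 days. The summed D cyclin level per kb of joined exons was 66.2 ± 2.81 with IL-1β for 20 days and 104 ± 14.2 with PBS (SD, n = 4 each), and 90.3 ± 4.67 and 101 ± 12.9 at 1 day (SD, n = 3 each). Per kb of the longest coding transcript the sum was 199 ± 10.9 with IL-1β for 20 days and 259 ± 27.8 with PBS, and at 1 day the order of the means turned, with 273 ± 12.1 with IL-1β and 264 ± 37.0 with PBS.

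Of 7 listed CDK inhibitor genes 5 were tested, and at each duration 1 rose and 1 fell. Of all genes tested, 2.52% rose and 1.83% fell at 1 day, and 3.94% rose and 3.52% fell at 20 days. Cdkn1c, which encodes the inhibitor p57, fell by 0.54 ± 0.14 at 1 day (edgeR adjusted p = 0.0491) and by 0.59 ± 0.12 at 20 days (adjusted p = 0.0113). Cdkn2c, which encodes an inhibitor of Cdk4 and Cdk6, rose by 0.71 ± 0.14 at 1 day (adjusted p = 0.0103), with 61.3 ± 8.17 CPM with IL-1β and 37.4 ± 0.898 CPM with PBS (SD, n = 3 each). Cdkn2d, of the same inhibitor family, rose by 0.41 ± 0.09 at 20 days (adjusted p = 0.0122). None of the 3 retinoblastoma family genes was called by edgeR at either duration, with 1 at an unadjusted p under 0.05 and 1 called by DESeq2 at 1 day, and 0 by both at 20 days. Of the Myc family, Mycn fell by 0.50 ± 0.11 at 1 day (adjusted p = 0.0158) and by 1.22 ± 0.09 at 20 days (adjusted p = 5.51e-06), and Myc fell by 0.42 ± 0.08 at 20 days (adjusted p = 0.00413). All these adjusted p are edgeR's.

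Downstream of the kinases, 4 of 10 E2F and DP genes rose at 1 day and 1 of 10 at 20 days, with none called lower (at an unadjusted p under 0.05, 0 were lower at 1 day and 2 at 20 days, and DESeq2 called 0 and 1 lower). E2f8, which encodes an E2F repressor, rose by 0.93 ± 0.12 at 1 day (edgeR adjusted p = 0.000492) and by 0.64 ± 0.10 at 20 days (adjusted p = 0.00134). E2f2, which encodes an activator, rose by 1.06 ± 0.16 at 1 day (adjusted p = 0.00165), and E2f7, a second repressor gene, by 0.82 ± 0.16 (adjusted p = 0.0106). Of 21 E2F target genes of G1 and S phase, 14 rose at 1 day (median 0.64) and 2 at 20 days (median -0.04). Those 2 were Rrm2, which encodes a ribonucleotide reductase subunit (0.44 ± 0.10, adjusted p = 0.0122), and Ccna2, the cyclin A2 gene (0.39 ± 0.10, adjusted p = 0.0243). At 1 day Rrm2 rose by 0.98 ± 0.11 and Ccna2 by 0.97 ± 0.11, as did the thymidine kinase gene Tk1 by 0.98 ± 0.14 (adjusted p = 0.0011). Of 5 S and M phase cyclin and Cdk1 genes, 5 rose at 1 day (median 0.97) and 4 at 20 days (median 0.42). Ccna2 is in both this list and that of the E2F targets and is counted in each. Ccnf, which encodes cyclin F, rose by 1.16 ± 0.11 at 1 day (adjusted p = 0.00012). The medians of all genes tested were -0.01 and -0.00034, and 2.52% of them rose at 1 day and 3.94% at 20 days.

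**Figure D4:**
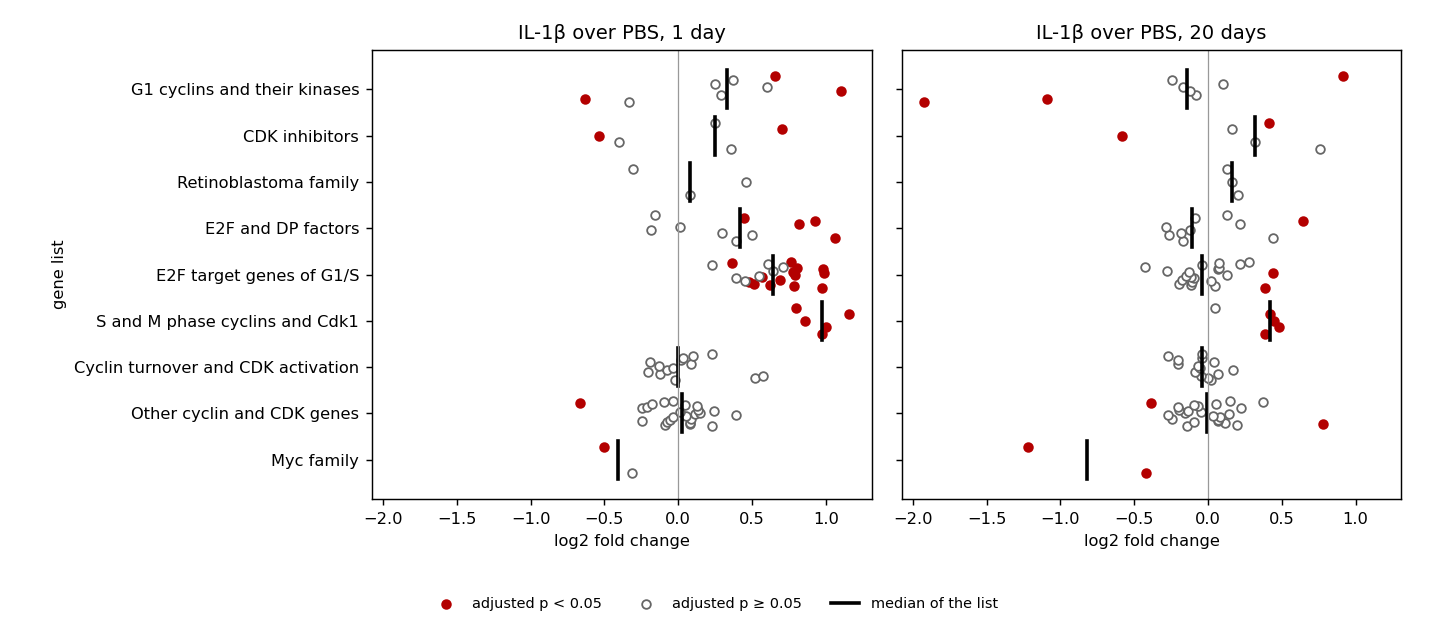
Each point is 1 tested gene of the list on the vertical axis, placed by its edgeR log2 fold change of IL-1β over PBS at 1 day (left) and 20 days (right); filled points have an adjusted p below 0.05 and black lines mark list medians. The E2F target median is 0.64 at 1 day and -0.04 at 20 days, while the G1 cyclin and kinase list holds points on both sides of 0 at both durations.

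Among 14 genes of cyclin turnover and CDK activation none was called by edgeR at 1 or 20 days. Of these, Cdc25a is also in the list of E2F targets. At an unadjusted p under 0.05, 3 were higher at 1 day and 1 was lower at 20 days, and DESeq2 called 2 higher at 1 day and 1 lower at 20 days. The smallest p belonged to Cks1b at 1 day (0.57 ± 0.16, adjusted p = 0.0532) and to Cdc37, which encodes a chaperone of Cdk4 and other kinases, at 20 days (-0.27 ± 0.09, adjusted p = 0.0732). Of 24 tested genes for other cyclins and CDKs, 1 fell at 1 day, and 1 rose and 1 fell at 20 days. The one that fell was Cdk18 both times, by 0.67 ± 0.12 (adjusted p = 0.00608) and 0.39 ± 0.11 (adjusted p = 0.0394). Ccng2, which encodes a cyclin known for its high level in resting cells, rose by 0.78 ± 0.11 at 20 days (edgeR adjusted p = 0.000714). Over all genes tested, 4.35% were called at 1 day and 7.46% at 20 days.

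Members were also compared by how they varied over the 14 libraries, after centring each naming set on its mean of log2(CPM + 1). The libraries share the treatment contrast, so these correlations describe mainly that contrast. Ccnd1 and Ccnd2 varied together (Pearson r = 0.93) and opposite to Cdk6 (r = -0.84 and -0.94). Cdk4 varied with Ccnd3 (r = 0.82), Ccne1 (r = 0.81) and Ccne2 (r = 0.75), and hardly with Cdk6 (r = -0.01). Over all 11732 genes compared, Rcvrn (r = 0.99), Anxa2 (0.98), Tgfbi (0.98), Pcp4l1 (0.97) and Plscr1 (0.97) were most like Cdk6. Closest to Ccnd1 were Fscn1 (r = 0.97), Pusl1 (0.96), Sox18 (0.95), Tmem238 (0.95) and Slfn2 (0.95). Closest to Ccnd2 were Mn1 (r = 0.96), Cd74 (0.96), Pusl1 (0.96), Cd63 (0.96) and Ndn (0.96), so that Pusl1 appeared beside both of these cyclins.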

How the data were processed

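RNA of sorted cells was amplified with SMARTer chemistry, made into Nextera XT libraries and read from a single end, per the labels' protocols; this chemistry does not mark the strand. The authors deposited raw counts per gene symbol, as whole numbers with differing totals. The build GRCm38.p4 and the tools STAR 2.4.2a, Trimmomatic 0.32, DESeq2 1.12.3, HTSeq 0.6.1, Cuffdiff and Cufflinks 2.0.2 are named, without roles, per the submitters' processing notes. The annotation is not given in the sources used here, nor is the strand setting. Amplified reads carry no molecular identifiers, so floors cover counting error only. Over the 18 replicate pairs, chi-square per degree of freedom was 10.7 to 74.4.

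Counts were fitted with edgeR 4.0.16 in R 4.3.3 (TMM; filterByExpr, minimum count 10; robust quasi-likelihood test, two-sided; Benjamini-Hochberg over 15466 genes, threshold 0.05). All 14 libraries entered 1 fit with naming set terms and an IL-1β effect per duration (8 residual degrees of freedom). The fit was also run on simulated counts that held no differences between naming sets. Effects that differ by set were thus not tested there. The SE is the absolute log2 fold change over the square root of F. Ratios used a pseudocount of 0.5 and scipy 1.17.1. Printed CPM values are TMM-scaled, except the floor of 3 counts and sums over marker lists. Named genes are the 8 members, up to 3 called genes with the smallest p of each list per duration (or the 1 with the smallest p), the 5 genes most like Cdk6, Ccnd1 and Ccnd2 (mean CPM of at least 1, no predicted genes), and marker genes. Overlapping neighbours came from the annotation, which also places antisense genes over exons of Ccnd2 and Cdk6. Not every gene the rule takes is named. Members and lists were chosen with earlier results of these data known. Alternatives were other factors, DESeq2 1.42.0, no filter, no set term, a replicate block, each duration alone and leaving out each library.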

Additional observations from a re-analysis of the deposited data

Results flagged for a closer look

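Ccnd1 differed in its response between the 1-day and 20-day libraries by the test of the difference itself. Its 20-day effect minus its 1-day effect was -1.59 ± 0.27 (log2, edgeR adjusted p = 0.0137). At 20 days every IL-1β library lay below every PBS library. At 1 day the groups only just failed to overlap, at 21.94 CPM with IL-1β and 21.95 CPM with PBS where closest. The 1-day change was not called (edgeR adjusted p = 0.404). Groups did not overlap for 10.4% of all genes tested at 20 days and 17.7% at 1 day. Of all genes tested, 2.14% were called for the difference of effects. Durations and naming sets cannot be told apart here, as each duration has its own sets. The difference lost its call without replicate 2 of either 1-day group (adjusted p = 0.0524 without the IL-1β library and 0.0634 without the PBS library).

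IL-1β 20-day replicate 3 lay far from the other 3 libraries of its group in the summed level of 14 neutrophil genes, at 2619 CPM against 5.62 to 10.2 CPM. It was the only such library in 44 groups of 4 values looked at (8 members, 5 ratios and 9 marker lists); chance alone marks about 1 group in 20. Of the 8 G1 genes, its values lay within the range of the other IL-1β 20-day libraries for 6, while its Ccnd1 (6.59 CPM) was the lowest of the group and its Ccnd2 (257 CPM) the highest.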

How the results depend on the processing

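At 20 days 3 members were called in each of the 14 leave-out fits and each of the 7 other settings, and these were Ccnd1, Ccnd2 and Cdk6 each time. At 1 day the count was 3 in the reported fit, 5 with DESeq2 and 5 with the libraries of 1 duration alone, and 1 to 4 when each library was left out. Over all genes tested, the reported fit called 672 of 15466 at 1 day and DESeq2 1398 of 15466. The 1-day libraries alone called 1200 of 14152. DESeq2 added Ccnd3 and Ccne2, and the 1-day libraries alone added Cdk4 and Ccne2. For the difference of effects the member count was 1, 5 with DESeq2, and 0 to 3 when each library was left out (0 without replicate 2 of either 1-day group, 3 without IL-1β 20-day replicate 2). There the reported fit called 331 of all 15466 genes tested and DESeq2 1182. Small 20-day values of uncalled genes turned sign: Ccne1 to 0.11 without IL-1β replicate 4 and 0.0012 without PBS replicate 4, and Ccne2 to 0.0078 without PBS replicate 3 (leave-out ranges -0.37 to 0.11 and -0.31 to 0.0078). The numbers of all genes called, 672, 1154 and 331, ran from 228 to 1398, 525 to 1804 and 23 to 1182. With the replicate number as a replicate block, 2, 3 and 1 members were called; Ccne1 was lost at 1 day, as it was without naming set terms (adjusted p = 0.0737 and 0.0628). Same-numbered libraries did not all deviate together, so the numbers were not taken as pairs. Correlations of their deviations from group means were -0.03 to 0.27. With naming set and treatment means removed, they were -0.049 for replicates 1 and 2 at 1 day. At 20 days they were then 0.149 for replicates 1 and 2 and 0.0064 for replicates 3 and 4. Of the libraries, 4 of 6 at 1 day and 5 of 8 at 20 days were closest to their own number. Same-numbered libraries also share a naming set, so these counts cannot tell pairing from likeness within sets. Ratio differences kept their sign in every leave-out except that of Ccne1 to Ccne2 at 20 days (-0.16 to 0.20), where both groups overlap. With labels permuted within naming sets the exact p of the other 4 ratios at 20 days was 0.0556, and with the replicate block 0.125, each the smallest possible there. What depth limits is small here, as the fewest counts of any member in a library were 152 (Ccnd1).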
